A study of Mus musculus with 18 samples.

Results

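Described here are 5 genes measured in the mouse prostate: Tcaf1, Tcaf2 and Tcaf3, which make up the Tcaf family, and the ion channel genes Trpm8 and Trpv6. They were picked by name from the 55469 gene rows of each expression table, because Tcaf3 was lower in KO-TRAMP than in WT-TRAMP prostates at 30 weeks and because the family is known to bind the Trpm8 channel. That comparison is therefore given as a description without a test, and only the comparisons that did not choose the genes were tested.

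RNA of the ventral and lateral lobes was sequenced from 18 male mice in 6 groups of 3, numbered here as libraries 1 to 18. All mice carried a single copy of the TRAMP transgene, in which the probasin (Pb) promoter drives SV40 T antigens in prostate epithelium, on the strain given as C56NL/6N. WT-TRAMP mice had normal Elac2 (libraries 1 to 3 at 10 weeks, 10 to 12 at 30 weeks). A537T-TRAMP mice were homozygous for the A537T variant of Elac2 in the whole body (4 to 6 and 13 to 15), and KO-TRAMP mice had lost Elac2 in the cells where Pb-Cre was active (7 to 9 and 16 to 18). Both Cre and the T antigens thus depended on the same promoter, and other cells of the lobes kept Elac2. ELAC2 is the endonuclease that trims the 3′ ends of transfer RNA precursors.

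TCAF1 and TCAF2, named as TRPM8 channel-associated factors, bind the TRPM8 channel and alter its opening and its delivery to the cell surface. TRPM8 is a cold- and menthol-gated cation channel of sensory neurons that is also known as an androgen-dependent gene of human prostate epithelium. TRPV6 is a calcium-selective channel of absorbing and secreting epithelia. Tcaf3 is also listed under the older name Eapa2, for experimental autoimmune prostatitis antigen.

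The 3 Tcaf genes lie side by side on the minus strand of chromosome 6. In GRCm38, Tcaf3 (ENSMUSG00000018656) spans 42584866 to 42597692, Tcaf2 (ENSMUSG00000029851) spans 42623016 to 42645254 and Tcaf1 (ENSMUSG00000036667) spans 42668002 to 42710088, so the cluster covers 125 kb. Trpv6 (ENSMUSG00000029868), at 41620624 to 41636405 on the same strand, ends 948 kb before Tcaf3 begins. Trpm8 (ENSMUSG00000036251) is on the plus strand of chromosome 1, at 88277661 to 88389293.

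Tcaf3 shared its pattern across libraries most closely with Tgm4, the transglutaminase that the prostate secretes into semen, a gene on chromosome 9. The start regions of Tcaf3, its neighbour Tcaf2 and Tgm4 are shown for this reason, each from 250 bases before to 50 bases after the start site, from RefSeq for GRCm38.p6 and written 5′ to 3′ on the gene's strand. Capitals mark matches on either strand to 5 short motifs: the androgen receptor half-site AGAACA, the TATA box TATAAA, the GC box GGGCGG, the CCAAT box CCAAT and the forkhead motif TGTTTAC.
Tcaf3, chr6:42597323-42597622, minus strand: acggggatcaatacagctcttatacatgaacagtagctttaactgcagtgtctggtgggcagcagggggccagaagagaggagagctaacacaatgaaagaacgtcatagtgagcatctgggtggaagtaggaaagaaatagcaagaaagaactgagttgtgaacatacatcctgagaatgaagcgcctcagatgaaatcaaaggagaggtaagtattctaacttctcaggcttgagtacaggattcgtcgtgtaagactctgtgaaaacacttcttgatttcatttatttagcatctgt
Tcaf2, chr6:42644992-42645291, minus strand: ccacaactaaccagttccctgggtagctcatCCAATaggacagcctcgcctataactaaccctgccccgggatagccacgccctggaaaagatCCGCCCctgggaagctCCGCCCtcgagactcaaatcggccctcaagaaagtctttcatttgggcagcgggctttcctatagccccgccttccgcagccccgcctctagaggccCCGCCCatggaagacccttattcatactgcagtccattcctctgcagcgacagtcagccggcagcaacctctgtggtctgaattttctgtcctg
Tgm4, chr9:123034491-123034790, plus strand: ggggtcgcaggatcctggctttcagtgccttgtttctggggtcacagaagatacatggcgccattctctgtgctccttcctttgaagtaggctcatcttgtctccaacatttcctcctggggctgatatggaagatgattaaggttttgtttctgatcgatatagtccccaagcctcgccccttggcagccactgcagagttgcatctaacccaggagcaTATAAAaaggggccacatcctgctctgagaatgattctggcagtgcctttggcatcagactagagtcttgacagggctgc

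The Tcaf3 window held none of the 5 motifs. Its GC content was 42.7%, against 58.0% in Tcaf2, which held 3 GC boxes and a CCAAT box. Tgm4 held a TATA box whose first base was at −30 and none of the other motifs, so the windows of Tcaf3 and Tgm4 shared no motif of this list. Trpv6 held 1 androgen receptor half-site, at −108, and both annotated Tcaf1 starts held GC and CCAAT boxes. Of all 32851 start windows of this length, 19.0% held the androgen receptor half-site, 13.6% the TATA box, 35.7% the GC box, 37.4% the CCAAT box and 3.65% the forkhead motif. The motif letters did not overlap one another in the windows shown. A match describes letters only, and the lack of one leaves sites outside the window unseen. The RefSeq start of Tcaf3 differs from the gene span given above, which begins at 42597692 on the minus strand. Its window reached only to 42597622, so the bases before that other start were not examined. The Tcaf2 window reached to 42645291, a little past the 42645254 where its span begins.

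Each library held between 9380174 and 14830104 reads assigned to genes, as recovered from the deposited values. Levels are given as RPM, reads of a gene per 1000000 reads assigned to genes in that library. Elac2 itself was at 21.5 to 27.3 RPM in the 6 KO-TRAMP libraries and at 22.0 to 31.4 in the 6 WT-TRAMP libraries, and these ranges overlapped. The knockout removes a single exon and only in Pb-Cre cells, so a count over the whole gene cannot check those labels. Markers of other tissues varied within groups: 9 seminal vesicle transcripts made up more than 1% of reads in 7 libraries (5, 6, 9, 10, 12, 13 and 15), although this gland was dissected away. The 11 neuroendocrine markers summed to 1747 and 1101 RPM in KO-TRAMP libraries 17 and 18 but to between 7.87 and 320 in the other 16. All 16 luminal epithelial markers were detected in every library, as the labelled tissue would have.

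Tcaf3 was by far the most variable of the 5 genes, and at 30 weeks it was near its lowest level in every KO-TRAMP mouse. In WT-TRAMP mice at 30 weeks it stood at 34.6, 68.2 and 54.3 RPM, and in KO-TRAMP mice at 2.40, 1.69 and 3.07. The 2 groups did not overlap. As normalised counts, the means were 608.6 ± 204 in WT-TRAMP and 26.5 ± 7.68 in KO-TRAMP (SD, n = 3 each), a 23.0-fold lower level, and the log2 fold change was −4.45 ± 0.34 (SE). This is the difference that chose the gene. Among the 16900 genes with a mean normalised count of at least 10 in this table, 9.48% were lower without overlap and 0.213% passed the threshold of 0.05 on the adjusted p of limma in either direction. The log2 fold change stayed between −4.74 and −4.22 when each library was left out in turn.

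Library 16 is the KO-TRAMP mouse of this age whose neuroendocrine markers summed to 28.6 RPM, with 6 of the 11 at 0, close to the 28.9 of WT-TRAMP library 11. Its Tcaf3 level of 2.40 lay between those of libraries 17 and 18, which had the highest neuroendocrine sums. The luminal marker list summed to 3861 to 5247 RPM in these KO-TRAMP libraries and to 4880 to 5948 in the WT-TRAMP libraries of 30 weeks, and no luminal marker was at 0. The 7 leukocyte markers summed to 196, 122 and 157 RPM in libraries 16, 17 and 18, above the 76.7 to 101 of WT-TRAMP without overlap, and none was at 0 in these KO-TRAMP libraries. The 10 proliferation markers summed to 704, 2740 and 1884 RPM in the same libraries and to 715 to 1351 in WT-TRAMP. The part of these other cells in the Tcaf3 difference was not tested. In whole lobes, fewer cells that express a gene and less RNA per cell cannot be told apart. Without the 2 WT-TRAMP libraries of high seminal vesicle content, the log2 fold change was −4.91, against 1 remaining WT-TRAMP library.

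At 10 weeks the same gene separated the mice of each mutant line from one another rather than from WT-TRAMP. WT-TRAMP libraries had 10.4, 5.65 and 58.0 RPM of Tcaf3, KO-TRAMP libraries 1.14, 486 and 52.1, and A537T-TRAMP libraries 1.89, 325 and 306. In each mutant line at least 1 mouse lay below every WT-TRAMP mouse and at least 1 lay far above the highest of them. Relative to WT-TRAMP, log2 Tcaf3 differed by 0.99 ± 1.93 (SE; limma adjusted p = 0.949) in KO-TRAMP and 2.02 ± 2.00 (limma adjusted p = 0.733) in A537T-TRAMP. The sign in KO-TRAMP rested on library 8: without it the log2 fold change was −0.99. In A537T-TRAMP it rested on libraries 5 and 6, without which the remaining library 4 stood at −2.98 relative to WT-TRAMP.

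A537T-TRAMP mice at 30 weeks were split in the same way, with 1.21, 152 and 2.98 RPM of Tcaf3. Libraries 13 and 15 fell below all 3 WT-TRAMP mice and library 14 above all of them, so the groups overlapped. The ratio of the mean normalised counts was 1.08, whereas the difference of mean log2 values was −2.47 ± 1.60 (SE; limma adjusted p = 0.769). These summaries differ in sign: library 14 alone holds most of the counts, while 2 of the 3 mice lie far below WT-TRAMP. Without library 14 the log2 fold change was −4.56, with a limma adjusted p of 0.088. The change in the A537T effect from 10 to 30 weeks, tested as an interaction of line and age, was −4.49 ± 2.90 (SE) on the log2 scale, with a limma adjusted p of 0.723.

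**Figure D1:**
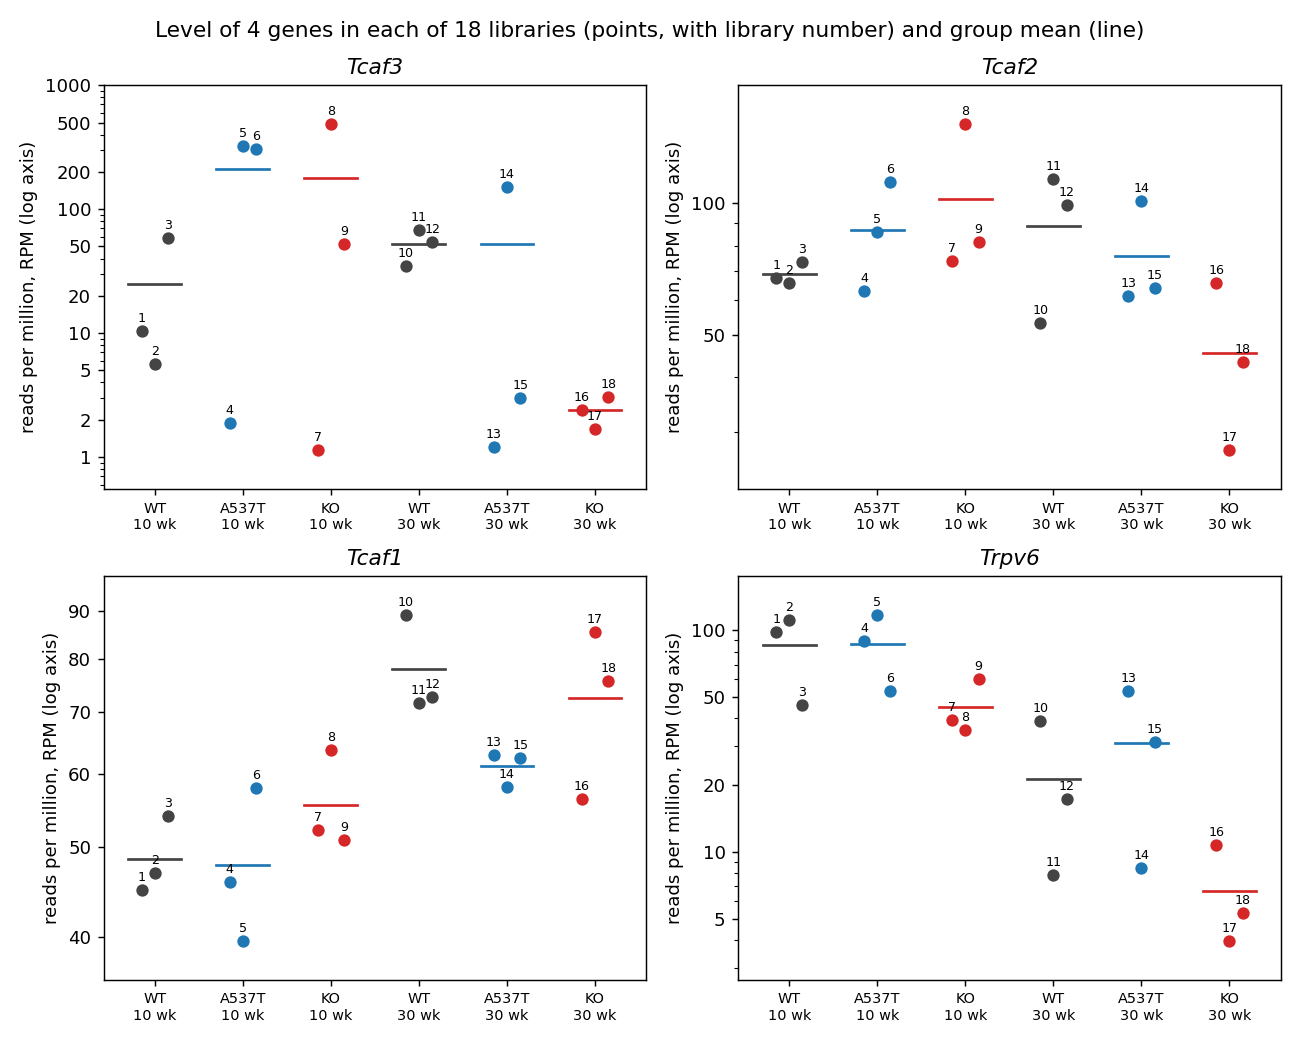
Level of Tcaf3, Tcaf2, Tcaf1 and Trpv6 in RPM on log axes, with 1 point per library (numbered) and a line at the mean of each group of 3. Tcaf3 runs from 1.14 to 486 with mice of 1 group far apart, except in KO-TRAMP at 30 weeks where all 3 lie between 1.69 and 3.07, while Tcaf1 stays between 39.6 and 89.2.

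Spread within groups set Tcaf3 apart from the other members. Its pooled within-group SD was 2.73 on the log2 scale, a value that 17 of 16401 genes exceeded (0.104%), whereas the median gene had 0.29. The highest library, number 8, was 425 times the lowest, number 7, and both were KO-TRAMP mice of 10 weeks. Trpv6 had a pooled SD of 0.84, exceeded by 6.35% of genes, and Tcaf2 had 0.48, exceeded by 20.6%. Tcaf1 had 0.20, which 76.7% of genes exceeded.

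Ordered by the group means of RPM, Tcaf3 was highest in A537T-TRAMP (211 ± 181) and KO-TRAMP (180 ± 267) at 10 weeks. WT-TRAMP (52.4 ± 16.9) and A537T-TRAMP (52.1 ± 86.6) at 30 weeks came next, ahead of WT-TRAMP at 10 weeks (24.7 ± 29.0) and KO-TRAMP at 30 weeks (2.39 ± 0.69; SD, n = 3 each). Neighbouring groups in that order overlapped in range, except the last pair. These levels were set across tables that were normalised separately and are a description.

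Seminal vesicle content and Tcaf3 ran in opposite order within WT-TRAMP and within A537T-TRAMP at 30 weeks, but not within the other groups. WT-TRAMP libraries 10, 12 and 11 had 4.35%, 1.90% and 0.000106% of seminal vesicle reads and 34.6, 54.3 and 68.2 RPM of Tcaf3. A537T-TRAMP libraries 13, 15 and 14 had 5.45%, 2.65% and 0.000313%, and 1.21, 2.98 and 152 RPM. The part of seminal vesicle tissue in these Tcaf3 levels was not tested. Libraries were also alike in 1 of the measures and far apart in the other. Libraries 5 and 8 had the 2 highest Tcaf3 levels, and their seminal vesicle transcripts made up 9.05% and 0.0536% of reads. Library 13 had 5.45% of seminal vesicle reads and 1.21 RPM of Tcaf3, and library 7 had 0.000906% and 1.14. Among the luminal markers, probasin (Pbsn), the androgen-induced secretory protein whose promoter drives the transgenes of these mice, was at 122, 122, 180 and 116 RPM in libraries 5, 6, 8 and 14. Those are the 4 libraries with more than 150 RPM of Tcaf3, and their Pbsn levels were the 4 highest of the 18. Library 4, next with 111 RPM of Pbsn, had 1.89 of Tcaf3. In the KO-TRAMP libraries of 30 weeks Pbsn was at 14.7, 3.91 and 7.97, and in WT-TRAMP libraries of that age at 48.1, 10.95 and 30.6. Pbsn was singled out after these values were seen, and its part in the Tcaf3 differences was not tested. Of the same marker list, Tgm4 also had its highest levels in libraries 5, 6, 8 and 14, but other markers did not follow. In library 5, Sbp (424 RPM), Spink1 (49.2), Foxa1 (80.1), Hoxb13 (67.5) and Azgp1 (72.4) were each at their lowest of the 18 libraries. Library 14 had 759 RPM of Sbp and 73.2 of Spink1.

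Likeness was measured as Pearson's r of log2(RPM + 1) over the 18 libraries, among 13448 protein-coding genes with at least 10 reads on average. The gene most like Tcaf3 was Tgm4, with r = 0.94 and a Spearman's rho of 0.91. After subtracting the group means r was 0.96, again the highest of all genes, and without libraries 5 and 8, the farthest from the median, it was 0.93. As the maximum over many genes these values describe the pair, and the libraries share the same tissue and groups.

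Tgm4 ranged from 2.43 to 515 RPM and was low and high in nearly the same mice as Tcaf3 in the mutant groups with wide spread. At 10 weeks Tgm4 was at 27.1, 5.86 and 53.1 in WT-TRAMP, at 2.61, 405 and 40.8 in KO-TRAMP, and at 3.79, 207 and 235 in A537T-TRAMP. At 30 weeks it was at 132, 53.9 and 95.1 in WT-TRAMP, at 8.27, 2.43 and 3.84 in KO-TRAMP, and at 6.13, 515 and 19.5 in A537T-TRAMP. In these 3 mutant groups with split values the lowest mouse was the same for both genes, and so was the highest, except that libraries 5 and 6 changed order. In WT-TRAMP at 30 weeks the 3 mice ran in the opposite order for the 2 genes, and in KO-TRAMP at 30 weeks the highest mouse was library 18 for Tcaf3 and library 16 for Tgm4. The log2 fold change of Tgm4 in KO-TRAMP at 30 weeks was −4.40 ± 0.53 (SE), beside −4.45 for Tcaf3. The ratio of Tcaf3 to Tgm4 in RPM lay between 0.153 and 1.57, with a median of 0.633, while each gene alone spanned over 2 orders of magnitude.

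**Figure D2:**
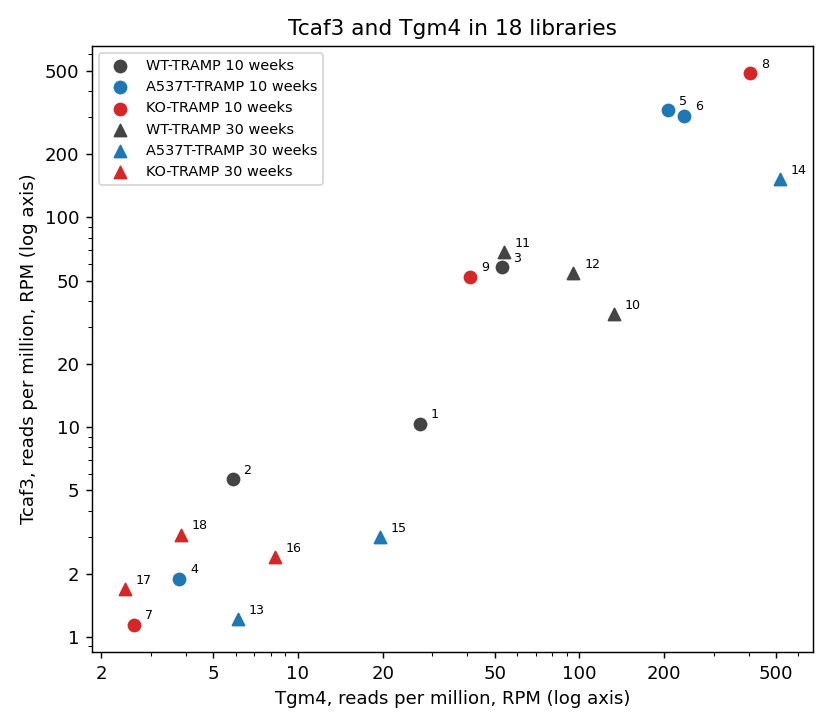
Tcaf3 against Tgm4 in RPM, both on log axes, with 1 numbered point per library, coloured by line and shaped by age. The 18 libraries lie along 1 rising band, with KO-TRAMP libraries 16, 17 and 18 at its lower end beside libraries 4, 7 and 13, and libraries 5, 6, 8 and 14 at its upper end.

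The genes next most like Tcaf3 were Fam193b (r = 0.88) and Camta2 (r = 0.87), whose levels stayed within 61.8 to 113 and 17.6 to 44.3 RPM. Tcaf2 was also like Tcaf3, with r = 0.74 over the 18 libraries and 0.66 after subtracting group means. Tcaf1, the other gene of the cluster, had an r of −0.09 with Tcaf3.

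Tcaf2 encodes a family member known to promote delivery of TRPM8 to the cell surface, and at 30 weeks it had the second largest log2 fold change of the family in KO-TRAMP. WT-TRAMP libraries of 30 weeks had 53.2, 114 and 99.4 RPM of Tcaf2 and KO-TRAMP libraries had 65.8, 27.2 and 43.3. Libraries 17 and 18 lay below all WT-TRAMP mice, whereas library 16 lay above library 10, so the groups overlapped. Normalised counts averaged 1031 ± 378 in WT-TRAMP and 508.6 ± 235 in KO-TRAMP (SD, n = 3 each), with a log2 fold change of −1.05 ± 0.43 (SE), given without a test since this contrast chose the genes.

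At 10 weeks Tcaf2 was at 67.4, 65.7 and 73.6 RPM in WT-TRAMP, 73.8, 152 and 81.8 in KO-TRAMP and 63.1, 85.9 and 112 in A537T-TRAMP. Library 7 of KO-TRAMP lay beside library 3 of WT-TRAMP, and the groups overlapped as normalised counts. From 10 to 30 weeks the level in KO-TRAMP was lower without overlap, as it was for 7.85% of 16401 genes with at least 10 reads on average. At 10 weeks log2 Tcaf2 differed from WT-TRAMP by 0.44 ± 0.26 (SE; limma adjusted p = 0.802) in KO-TRAMP and 0.45 ± 0.24 (limma adjusted p = 0.600) in A537T-TRAMP. A537T-TRAMP libraries of 30 weeks had 61.5, 101 and 63.9 RPM, within the WT-TRAMP range, and a log2 fold change of −0.08 ± 0.32 (limma adjusted p = 0.975). The interaction of line and age for A537T was −0.53 ± 0.44 (limma adjusted p = 0.743).

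Tcaf1, a family member known to increase TRPM8 opening, was the steadiest of the measured members, and its group means were higher at 30 than at 10 weeks in every line. It was at 44.9, 46.9 and 54.0 RPM in WT-TRAMP, 52.2, 63.7 and 50.9 in KO-TRAMP and 45.9, 39.6 and 58.0 in A537T-TRAMP at 10 weeks. At 30 weeks it was at 89.2, 71.7 and 72.7 in WT-TRAMP, 56.4, 85.6 and 75.6 in KO-TRAMP and 63.0, 58.1 and 62.5 in A537T-TRAMP. All 3 WT-TRAMP mice of 30 weeks lay above all 3 of 10 weeks, as they did for 21.4% of the 16401 genes, a comparison across separately normalised tables that was not tested. The A537T-TRAMP ages did not overlap either, by a narrow gap (58.0 against 58.1), and 11.2% of genes were higher at 30 weeks without overlap in that line.

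Its log2 fold change to WT-TRAMP was 0.13 ± 0.14 (SE; limma adjusted p = 0.895) in KO-TRAMP and 0.11 ± 0.16 (limma adjusted p = 0.811) in A537T-TRAMP at 10 weeks. KO-TRAMP at 30 weeks gave −0.18 ± 0.16, without a test. A537T-TRAMP libraries of 30 weeks all lay below the WT-TRAMP libraries, which 6.03% of all genes tested did in that direction, and the log2 fold change was −0.19 ± 0.11 (limma adjusted p = 0.750). The interaction for A537T was −0.30 ± 0.19 (limma adjusted p = 0.723).

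Trpv6 was high at 10 weeks and low at 30 weeks, and it was lowest in KO-TRAMP mice of 30 weeks. WT-TRAMP libraries had 98.1, 112 and 46.2 RPM at 10 weeks and 39.1, 7.85 and 17.3 at 30 weeks, with no overlap between the ages, as was so in this direction for 6.07% of the 16401 genes. In KO-TRAMP Trpv6 was at 39.5, 35.5 and 59.9 in the younger mice and at 10.8, 3.98 and 5.28 in the older ones, again without overlap (7.85% of genes in that direction). In A537T-TRAMP it was at 89.5, 117 and 53.1 in the younger mice and at 53.4, 8.44 and 31.2 in the older ones, where library 13 reached just above library 6. From 10 to 30 weeks in WT-TRAMP the luminal marker sum went from between 24940 and 32599 RPM to between 4880 and 5948, and the 8 smooth muscle markers went from between 417 and 683 RPM to between 1320 and 2313, both without overlap. No luminal or smooth muscle marker was at 0 in WT-TRAMP, and the part of these cells in the Trpv6 levels was not tested.

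Against WT-TRAMP of the same age, KO-TRAMP had a log2 fold change of Trpv6 of −0.92 ± 0.33 (SE) at 10 weeks, with 2 of 3 libraries below every WT-TRAMP library, an unadjusted limma p of 0.0235 and an adjusted p of 0.716. This was the lowest unadjusted p of any tested member. At 30 weeks the KO-TRAMP value was −1.57 ± 0.65, without a test, and libraries 17 and 18 lay below all WT-TRAMP libraries while library 16 lay above library 11. With WT-TRAMP library 11 alone as the control, the 30-week value was −0.44, since libraries 10 and 12 of high seminal vesicle content had the higher Trpv6 levels of that group.

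A537T-TRAMP differed from WT-TRAMP in Trpv6 by 0.17 ± 0.43 on the log2 scale at 10 weeks (limma adjusted p = 0.900) and by 0.58 ± 0.77 at 30 weeks (limma adjusted p = 0.897). The interaction of line and age was 0.41 ± 0.99 (limma adjusted p = 0.911). At 10 weeks the sign turned without library 3 (−0.22) or library 5 (−0.17). At 30 weeks the value was −0.0014 without library 13.

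**Figure D3:**
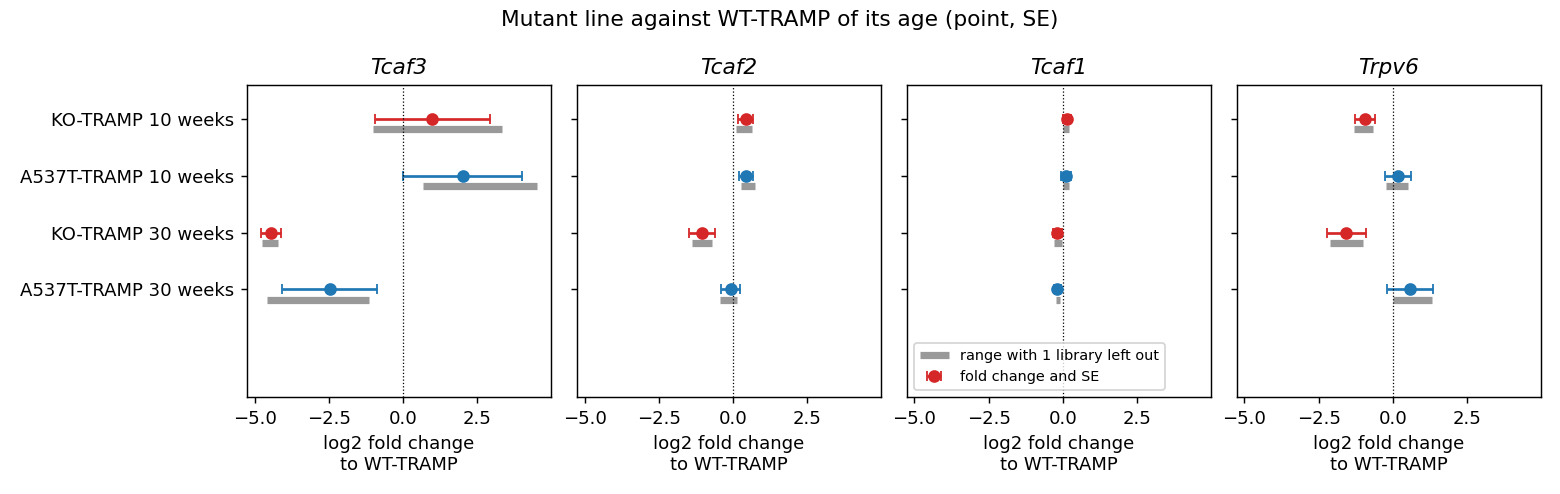
Log2 fold change of each mutant line against WT-TRAMP of its age for 4 genes (point and SE, n = 3 mice per group), with a grey bar for the range when each library is left out in turn. The Tcaf3 bar is narrow in KO-TRAMP at 30 weeks, from −4.74 to −4.22, and several log2 units wide in the other comparisons, while the Tcaf1 bars stay within 0.30 of 0.

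Trpm8 had no read in any of the 18 libraries, 0 of 206538962 reads in all. By the limit of 3 reads that a count of 0 allows, its level was under 0.202 to 0.320 RPM in each library, which covers counting error only. Neither fold change nor test could be given in any comparison. The 10 housekeeping genes checked had reads in every library, and 3678 of 21961 protein-coding genes were at 0 in all libraries, so a listed 0 was not particular to Trpm8. Its annotated antisense transcript 4930453O03Rik was also at 0. Among 6 markers of sensory neurons, the cells for which Trpm8 is best known, the sodium channel gene Scn10a was at 0 in all libraries.

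Of the 5 members, 4 passed the minimum mean in each table, and Trpm8 did not. At an adjusted p of 0.05 by limma, 0 of 4 were called in KO-TRAMP at 10 weeks, where 0.0129% of 15451 genes were called, and 1 had an unadjusted p under 0.05, as had 6.64% of those genes. None was called in A537T-TRAMP at 10 weeks (background 0.00648% of 15438 genes) or at 30 weeks (0% of 16261 genes), and 0 had an unadjusted p under 0.05, beside 7.89% and 7.21% of genes. The edgeR and DESeq2 tests on recovered reads also called 0 of 4 in these 3 comparisons. In the interaction of A537T and age 0 of 4 were called, as were 0% of 15941 genes. These tests rest on 3 separate mice per group. Their p-values set each difference against the spread between those mice, in an estimate that also draws on the other genes. Both mutant lines of an age were compared with the same 3 WT-TRAMP mice.

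Compared per length, the mean levels over the 18 libraries in RPKM (RPM per kilobase of exons) were 23.6 for Tcaf3, 16.3 for Tcaf2, 11.7 for Trpv6, 6.29 for Tcaf1 and 0 for Trpm8. The order depended on the library, since Tcaf3 ran from 0.310 to 132 and Tcaf2 from 5.70 to 31.8 on that scale. At 30 weeks in KO-TRAMP the order was Tcaf2 (9.51 ± 4.05), Tcaf1 (7.53 ± 1.54), Trpv6 (1.70 ± 0.92) and Tcaf3 (0.646 ± 0.19; SD, n = 3 each). The means of Tcaf2 and Tcaf1 there differed by less than the SD of Tcaf2.

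Few reads could be mistaken between members. Words of 31 bases that Tcaf3 transcripts share with Tcaf2 made up 1.89% of Tcaf3, and 1.22% of Trpv6 words were shared with its neighbour Trpv5. Trpv5, the kidney calcium channel closest to Trpv6, had between 0 and 0.212 RPM and was at 0 in 11 libraries.

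**Figure D4:**
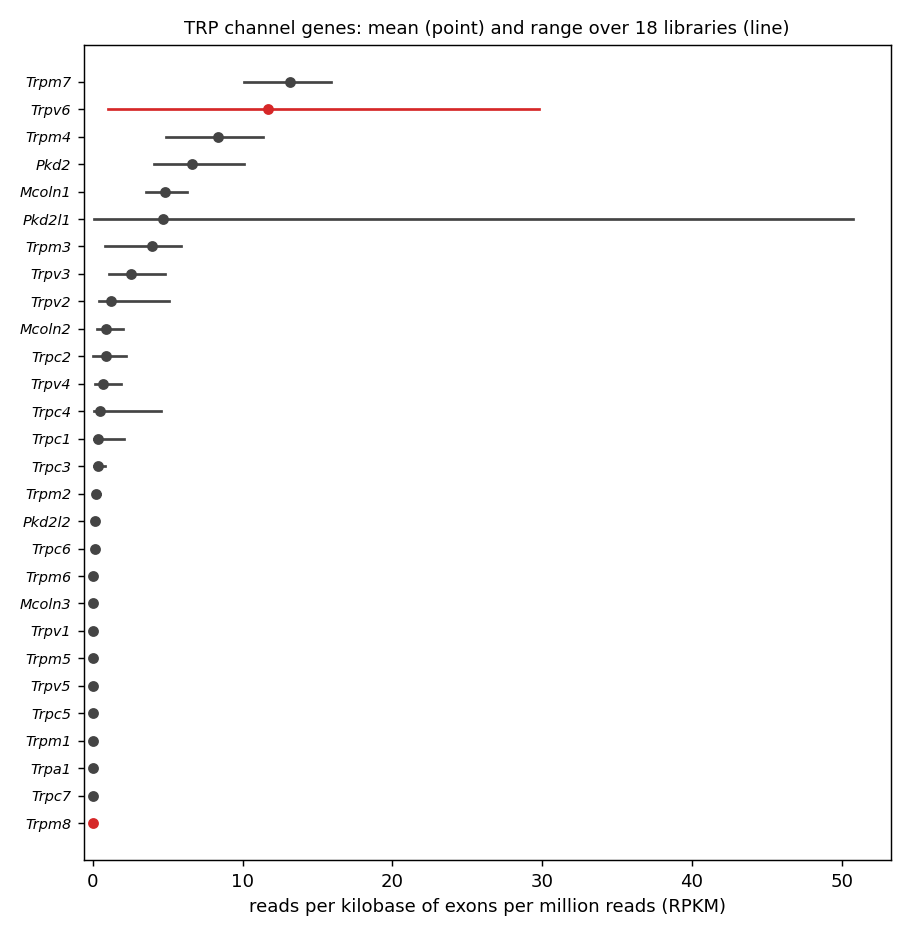
Mean level (point) and range over 18 libraries (line) in RPKM for Trpv6 and Trpm8 (red) and the 26 other TRP channel genes. Trpv6 lies second, with the mean at 11.7 and the range from 1.01 to 29.8, and Trpm8 lies at 0.

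The place of Trpv6 in its channel family depended on the group. Over the mean of all 18 libraries, of 26 other TRP channel genes only Trpm7, a channel fused to a kinase, had a higher mean per length (13.2 RPKM), followed below Trpv6 by Trpm4 (8.37), a calcium-activated sodium channel, and the polycystin gene Pkd2 (6.65). By group means in RPKM, 0 of the 26 lay above Trpv6 in WT-TRAMP (21.7 ± 8.78) and A537T-TRAMP (22.0 ± 8.19) at 10 weeks, and 1 did in KO-TRAMP of that age (11.4 ± 3.33; SD, n = 3 each). At 30 weeks 4 lay above it in WT-TRAMP (5.44 ± 4.08), 2 in A537T-TRAMP (7.88 ± 5.71) and 8 in KO-TRAMP (1.70 ± 0.92). In 11 of the 26 the mean was under 10 reads per library, and 2 were at 0 throughout. None of the tested genes of this list was called by limma in any of the 4 comparisons of mutant with WT-TRAMP: at 10 weeks 0 of 14 for KO-TRAMP and 0 of 15 for A537T-TRAMP, and at 30 weeks 0 of 16 and 0 of 15. At an unadjusted p under 0.05 the counts were 1, 3, 1 and 0, beside 6.64%, 7.89%, 13.5% and 7.21% of all genes tested. The edgeR test called none, and DESeq2 called 2 in KO-TRAMP at 30 weeks, where it called 4.76% of all genes, and none elsewhere.

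The median log2 fold change of the list at 10 weeks was 0.03 for KO-TRAMP and 0.15 for A537T-TRAMP, and at 30 weeks 0.11 and −0.11, beside medians between −0.01 and 0.01 over all genes tested. Leaving out 1 library in turn moved the list medians to between −0.06 (without library 1) and 0.20 (library 3) for KO-TRAMP and between 0.12 (library 6) and 0.66 (library 2) for A537T-TRAMP at 10 weeks. At 30 weeks the ranges were 0.0029 (library 17) to 0.28 (library 18) and −0.25 (library 12) to −0.06 (library 13). Named after their values were seen, Pkd2l1, a polycystin-like channel gene, was at 179 and 95.4 RPM in libraries 17 and 18 and at 1.42 in library 16, and Trpc4, a receptor-operated cation channel gene, was at 36.8, 20.6 and 0.979 in the same order. Libraries 17 and 18 are those with the highest neuroendocrine marker sums, and the part of these cells in the 2 values was not tested. Neither gene was called by limma (adjusted p = 0.423 for Pkd2l1 and 0.364 for Trpc4).

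No gene that carries calcium beyond the channel was called by limma. Of 24 calcium transport genes, 0 of 19 tested were called by limma in each mutant line at 10 weeks, 0 of 21 in KO-TRAMP and 0 of 20 in A537T-TRAMP at 30 weeks. At an unadjusted p under 0.05 there were 3, 3, 2 and 0, beside the same shares of all genes as for the TRP list. The edgeR test called none, and DESeq2 called 1 and 2 at 10 weeks (0.537% and 0.959% of all genes) and 1 and 0 at 30 weeks (4.76% and 1.02%). The list medians were 0.08 and −0.03 at 10 weeks and −0.11 and −0.02 at 30 weeks on the log2 scale. With 1 library left out these became −0.001 (without library 3) to 0.13 (library 7) and −0.07 (library 6) to 0.06 (library 5) at 10 weeks, and −0.27 (library 16) to −0.02 (library 18) and −0.02 (library 12) to 0.02 (library 11) at 30 weeks. The highest per length were the endoplasmic reticulum pump Atp2a2 (57.8 RPKM) and the Golgi pumps Atp2c2 (24.8) and Atp2c1 (17.7), and the cytosolic calcium buffer S100g, a partner of Trpv6 in the intestine, reached at most 0.202 RPM.

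The genes most like the other members differed from those of Tcaf3. For Trpv6 they were the secreted factor gene Fam3b (r = 0.93), the calcium-activated potassium channel gene Kcnn4 (r = 0.90) and Tc2n (r = 0.86). After subtracting group means Kcnn4 was first of all genes (r = 0.92), whereas Fam3b fell to 0.73. For Tcaf2 they were Tmem131 (r = 0.92), the phosphatase gene Dusp23 (r = 0.92) and the death-associated kinase gene Dapk1 (r = 0.91). For Tcaf1 they were the scaffold gene Mpdz (r = 0.91), Ypel1 (r = 0.90) and Dnajc27 (r = 0.90). Across members, Tcaf1 and Trpv6 ran in opposite directions (r = −0.72), an r that was −0.23 after subtracting group means.

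The surroundings of the Tcaf cluster held few reads. Within 200 kb of it lay 17 protein-coding genes including the 3 members, and the other 14, which are the bitter taste receptor genes Tas2r143, Tas2r135 and Tas2r126 and olfactory receptor genes, had under 10 reads per library on average. Next to Trpv6 on its other side, Ephb6, an ephrin receptor without kinase activity, was at 20.9 to 138 RPM. In KO-TRAMP at 10 weeks Ephb6 lay below WT-TRAMP without overlap, as did 6.26% of all genes tested, at a log2 difference of −0.70 ± 0.18 (SE) and a limma adjusted p of 0.683.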

How the data were processed

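Per the labels and the study's methods, reads were trimmed (Trim Galore 0.4.1, cutadapt 1.18), aligned to GRCm38.p6 with STAR 2.7.3a, counted per transcript with Salmon in the stranded mode on GENCODE annotation, summed per gene with tximport and scaled with DESeq2 1.26. The authors deposited normalised counts (a signal divided by 1 size factor per library) in 4 tables of 6 libraries, each mutant line with WT-TRAMP of its age, each normalised separately. Further deposited tables hold the authors' own comparisons (shrunken log2 fold changes, their SD and s-values) and were not used.

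Column headers carry library numbers only. Columns found in both tables of an age were taken as WT-TRAMP and the others as the mutant line. All values (100%) were whole multiples of the smallest value of their column within 0.01, which gave reads per library. Reads of the members in the same WT-TRAMP library differed by up to 56 between tables, and levels use the KO-TRAMP tables for WT-TRAMP. Where they differed, the A537T-TRAMP table was always the lower, as for Tcaf1 in library 11 (822 reads against 877). RPM of WT-TRAMP thus stands slightly high beside RPM of A537T-TRAMP. Fold changes to WT-TRAMP were taken within 1 table.

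Tests used limma 3.58.1 (R 4.3.3) with a mean-variance trend on log2(normalised count + 1), for genes with a mean of at least 10, two-sided, with Benjamini-Hochberg adjustment over all genes tested and 0.05 as the threshold. A fold change here is on that scale, which understates those of low genes. Alternatives were a pseudocount of 5, no minimum mean, TMM scaling, no trend, array weights, edgeR 4.0.16 and DESeq2 1.42.0 on recovered reads, each library left out, and no libraries with over 1% seminal vesicle reads. Exon lengths were from a GENCODE annotation of the same build. Named genes were the 5 members, Elac2, the 3 highest per length of each list, neighbours within 200 kb and the 3 genes most alike, leaving out clone names. Members and lists were chosen with earlier results of these data known. Protein sequences were not analysed here.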

Additional observations from a re-analysis of the deposited data

Results flagged for a closer look

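Tcaf2 in KO-TRAMP lay on opposite sides of WT-TRAMP at the 2 ages. Its log2 fold change to WT-TRAMP was 0.44 at 10 weeks and −1.05 at 30 weeks, and the later effect minus the earlier one was −1.48. At 10 weeks all 3 KO-TRAMP libraries lay above the WT-TRAMP mean and at 30 weeks all 3 lay below it. The 10-week value rested mainly on library 8 (0.10 without it, at most 0.64 without library 7), and the 30-week value ran from −1.39 (without library 10) to −0.71 (without library 17). The same difference was −5.45 for Tcaf3, whose 10-week libraries lay on both sides of the WT-TRAMP mean. The difference was not tested, because the 30-week contrast chose the genes.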

How the results depend on the processing

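No paired analysis was possible because the columns carry no replicate numbers. Of 288 values of the members under the alternatives, 265 counted as unchanged, 18 reversed in sign and 3 newly passed the threshold. Unchanged meant the same direction and side of the threshold, or the same direction alone where a fit gave no test. For KO-TRAMP at 30 weeks, which was not tested, it meant a value within the SD of the fit from the main value. Another 2 values, of Tcaf3 and Trpv6 in that comparison, kept their direction but moved farther. Leaving out each library in turn gave log2 ranges of −0.99 to 3.34 for Tcaf3 in KO-TRAMP at 10 weeks, −0.0065 to 0.20 for Tcaf1 and −0.22 to 0.52 for Trpv6 in A537T-TRAMP at 10 weeks, −0.42 to 0.14 for Tcaf2 and −0.0014 to 1.33 for Trpv6 in A537T-TRAMP at 30 weeks, and −0.18 to 1.15 for the Trpv6 interaction. Without libraries of over 1% seminal vesicle reads, A537T-TRAMP at 10 weeks, left with library 4, gave −0.056 (Tcaf1), −0.10 (Tcaf2) and −2.98 (Tcaf3). KO-TRAMP at 30 weeks then gave −4.91 (Tcaf3) and −0.44 (Trpv6) against library 11 alone, and A537T-TRAMP at 30 weeks gave 1.26 for Tcaf3 with 1 library per group and no test. For Tcaf3 in A537T-TRAMP at 30 weeks edgeR gave 0.085 and DESeq2 0.10, which compare mean counts. Array weights gave −0.37 for Trpv6 in A537T-TRAMP at 10 weeks and passed the threshold for Tcaf3 in A537T-TRAMP at 30 weeks (−3.85, limma adjusted p = 0.0154, over all settings 0.0154 to 0.999) and for the interactions of Tcaf2 (−1.15) and Tcaf3 (−7.67), in fits that called 3388 of 16261 and 1645 of 15941 genes. List genes called rose from 0 to 2 TRP and 3 calcium genes with array weights in A537T-TRAMP at 30 weeks, to 10 of 16 and 15 of 21 in KO-TRAMP at 30 weeks (63.6% of all genes in that fit, beside 20.8% in the A537T-TRAMP fit), and to 0 to 5 and 0 to 6 there when 1 library was left out (most without library 16, when 3011 genes were called). In A537T-TRAMP at 30 weeks leaving 1 library out gave 0 to 1 calcium genes (1 without library 11). DESeq2 called 2 TRP and 1 calcium gene in KO-TRAMP at 30 weeks, and at 10 weeks 1 calcium gene in KO-TRAMP and 2 in A537T-TRAMP. Over all genes limma, edgeR and DESeq2 called 2, 0 and 83 in KO-TRAMP and 1, 0 and 148 in A537T-TRAMP at 10 weeks, and 36, 15 and 805 and 0, 0 and 166 at 30 weeks. The cause of these shifts was not tested. Levels under 3 reads per library were beyond this depth.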
